A study of Mus musculus with 8 samples.

Results

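Malat1 is a long noncoding RNA that stays in the nucleus, where it gathers in nuclear speckles. It was described here through the cDNAs of SRSF3-GFP that fell on chromosome 19 from 5795000 to 5803000 of mm9, minus strand. It is 1 gene, chosen by its high cDNA count in these same libraries, so its level is given as a description with no test. Replicate 1 listed 4650 positions there of 769652 in the library, replicate 2 listed 5892 of 2093525, and the merged track listed 6371 of 3846902. The series holds 8 mouse samples of strain C57BL/6. SRSF3 knockout hearts (3) came from adult SRSF3flox/flox;alphaMHC-CreERT2 mice and control hearts (3) from adult alphaMHC-CreERT2 mice. Both received 3 injections of 1 mg 4-hydroxytamoxifen, the agent that switches on this Cre, and the alphaMHC promoter limits the Cre to cardiomyocytes. Hearts were taken 5 days after the last injection, and they are not analysed here. The iCLIP group is neonatal cardiomyocytes (2 replicates), taken at postnatal day 0 or 1 and plated. Transfection used 15 µg of modRNA (chemically modified mRNA) for SRSF3-GFP with 21 µL of Lipofectamine 2000. After 48 h the cells received 100 mJ of 254 nm UV, and RNA cut to between 80 and 200 nt was precipitated through GFP with a goat antibody. The cells therefore made a tagged SRSF3 beside their own, and no precipitation without the tag was analysed here. Separate cultures for the replicates are not named in the labels, and both tracks carry the same library identifier, so differences between them may be technical. The p-values between them are set against counting error alone and hold no estimate of the spread between libraries or cultures. No marker check of the cell type was made, since no annotation of this build was used.

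Malat1 RNA is transcribed by RNA polymerase II and is usually not spliced. Its 3′ end is not polyadenylated in the usual way. RNase P cuts the precursor behind a genomically encoded adenosine tract, which folds back on upstream uridine-rich motifs into a triple helix, and releases a small tRNA-like RNA named mascRNA. SRSF3 is a small SR protein that binds RNA through an RRM domain and acts in splicing and in the export of mRNA. In iCLIP a protein is crosslinked to RNA by UV light, the RNA is trimmed, and each cDNA marks the nucleotide next to the crosslink where reverse transcription stopped. UV light at this wavelength crosslinks uridine most readily.

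Malat1 held 15773 cDNAs in replicate 1, 39478 in replicate 2 and 17722 in the other libraries, which are the merged track less both replicates. Per 1000000 cDNAs of the library (CPM) this was 19344 (exact 95% Poisson interval 19043 to 19648), 17517 (17345 to 17691) and 15567 (15338 to 15798), with a mean of 18430 ± 1292 CPM over the replicates (SD, n = 2). One nuclear RNA thus took 1.93% of all cDNAs of replicate 1, 1.75% of replicate 2 and 1.56% of the other libraries. The opposite strand held 0, 1 and 0 cDNAs. Library totals were 815414, 2253688 and 1138453 cDNAs, and depth sets the precision of each value below. Replicate 1 stood above replicate 2 by 0.14 on the log2 scale, a ratio of 1.10 (exact 95% interval 0.12 to 0.17 on the log2 scale). The other libraries had a log2 ratio of -0.21 to both replicates together (95% interval -0.23 to -0.19). These intervals cover counting error alone. The tracks give no RNA abundance, so more Malat1 RNA and more binding per RNA molecule cannot be told apart, nor can more cells of a type and more RNA per cell.

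To read the bases, the full-length reference transcript of Malat1 (6983 nt, GENCODE M21) was laid along the mm9 numbering at each of 401 neighbouring placements. The share of cDNAs on uridine was highest, at 45.2% in replicate 1 and 44.7% in replicate 2, when the 5′ end stood at 5802673. It averaged 28.8% and 29.0% over placements more than 10 nt away. The same placement was best when the cDNAs 5′ and 3′ of the middle were taken separately in both replicates. A 5′ end at 5802672 came next, with 43.3% and 43.8%, and was marginally the better one in the other libraries, with 44.9% against 44.8%. Positions along the RNA (nt, counted from 1 at the 5′ end) may thus be off by 1 nt, and the mm9 coordinates are those of the tracks. The search took the uridine excess to be at the listed nucleotide itself. Whether the tracks list the crosslinked nucleotide or the one beside it was not tested. At this placement the RNA runs from 5802673 to 5795691. The middle 99% of all merged cDNAs lay between nt 63 and nt 6606, a span of 6544 nt (chr19:5796068-5802611) with 98.9% of the Malat1 cDNAs in replicate 1 and 99.1% in replicate 2.

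SRSF3-GFP cDNAs covered nearly the full length of Malat1, with the densest stretch in its 3′ part. In segments of 1000 nt from the 5′ end, the density was 2081 ± 238 CPM per kb from nt 1 to 1000, 2596 ± 307 from nt 1001 to 2000 and 2122 ± 1.97 from nt 2001 to 3000 (SD, n = 2). It was 3112 ± 267 CPM per kb from nt 3001 to 4000, 3355 ± 84.8 from nt 4001 to 5000 and 3576 ± 347 from nt 5001 to 6000. The last 983 nt, which include the cut-off 3′ tail, held 1602 ± 52.3 CPM per kb. Each segment between nt 3001 and 6000 exceeded every segment up to nt 3000 in both replicates. In the other libraries nt 3001 to 4000 had 2264 CPM per kb, the same as nt 1001 to 2000. The median cDNA lay at 57.1% of the span from its 5′ end in replicate 1, 57.3% in replicate 2 and 55.8% in the other libraries, which is nt 3799, 3810 and 3712.

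**Figure D1:**
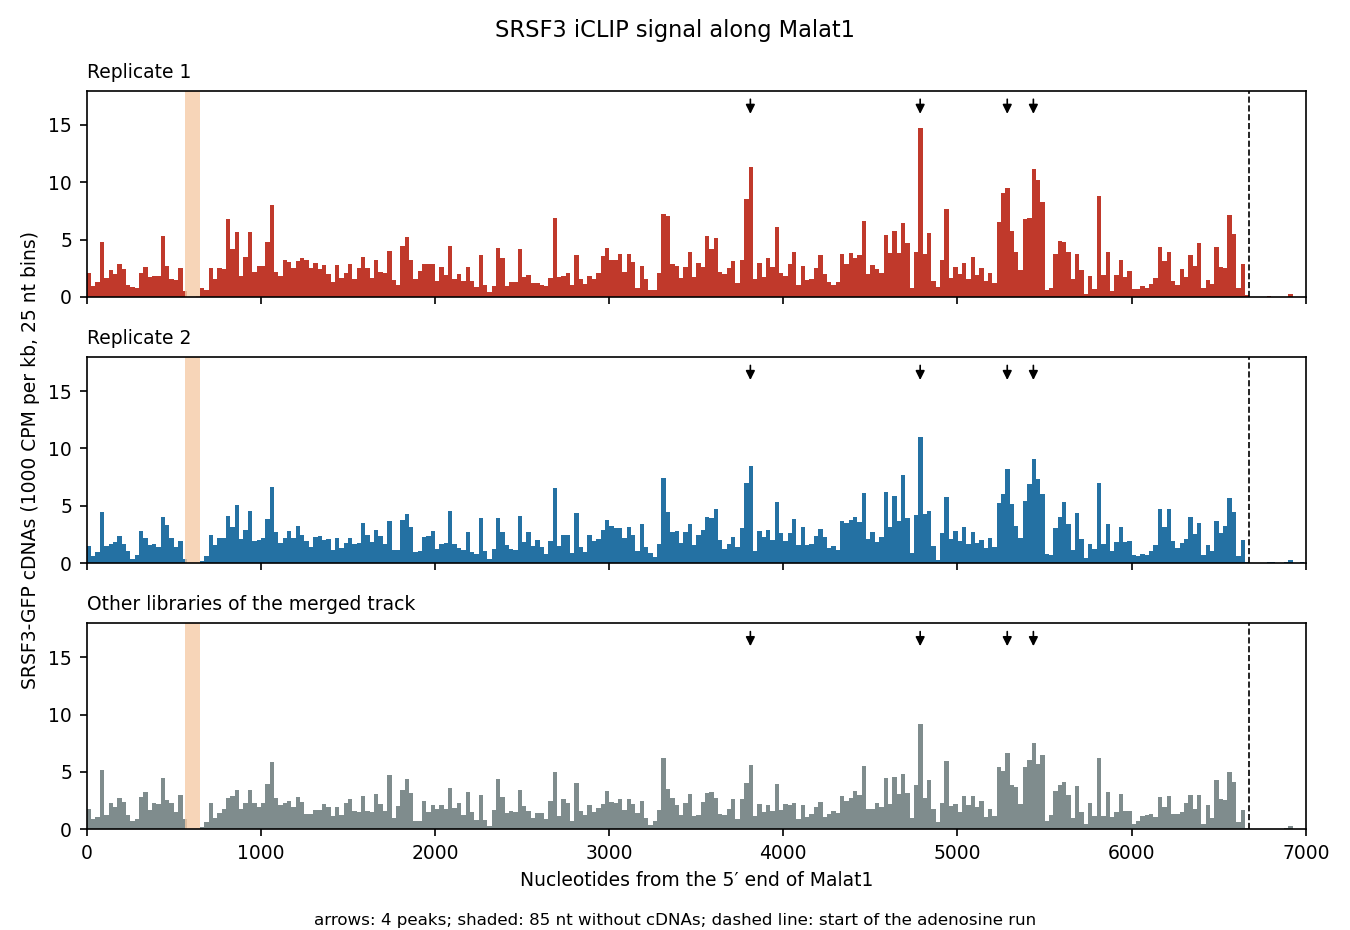
SRSF3-GFP cDNAs in units of 1000 CPM per kb (y axis) per 25 nt bin along Malat1, in nucleotides from the 5′ end (x axis), with replicate 1 above replicate 2 and the other libraries of the merged track at the bottom. Arrows mark the 4 peaks, the shaded band the 85 nt without a cDNA and the dashed line the start of the adenosine run; signal spans the RNA and falls to near 0 in the last bin before that line.

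Among the 65 bins of 100 nt in the span, signal ranged from 15.9 to 840 CPM in replicate 1 (median 264), from 3.11 to 677 in replicate 2 (median 241) and from 4.39 to 591 in the other libraries (median 214). The strongest bin, nt 5374 to 5473 (chr19:5797201-5797300), had 685 cDNAs in replicate 1, 1525 in replicate 2 and 673 in the other libraries, or 758 ± 116 CPM (SD, n = 2). Its neighbour towards the 5′ end, nt 5274 to 5373, had 485, 1140 and 502 cDNAs (550 ± 62.9 CPM). The bin at nt 4774 to 4873 had 520, 1220 and 517 cDNAs (590 ± 68.1 CPM). The bin at nt 3774 to 3873 had 494, 1070 and 363 cDNAs (540 ± 92.7 CPM). The last of the 5, nt 4574 to 4673, had 377, 1044 and 400 cDNAs and nearly the same level in both replicates (463 ± 0.636 CPM). All 5 lie 3′ of the middle of the RNA.

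The weakest bins were far apart from each other. Bin nt 574 to 673 held 13 cDNAs in replicate 1, 7 in replicate 2 and 5 in the other libraries, and most of it lies in the empty stretch described below. Bin nt 5974 to 6073 held 97, 231 and 114 cDNAs, and bin nt 2574 to 2673 held 95, 345 and 169.

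In bins of 100 nt the profile was fairly even, and at single nucleotides it was not. The Gini coefficient of the 65 bins, which is 0 for a flat profile and 1 when a single bin holds all, was 0.242 in replicate 1, 0.221 in replicate 2 and 0.200 in the other libraries. The strongest bin held 3.19, 2.80 and 2.76 times as many cDNAs as the median bin. Only 4, 3 and 3 bins exceeded the median more than 2-fold, and 3, 2 and 2 bins were below 0.5 times the median. Over single nucleotides the coefficient was 0.625, 0.556 and 0.571, and the strongest 700 nucleotides held 45.3%, 40.3% and 39.7% of the cDNAs. The span had 2.38, 5.98 and 2.68 cDNAs per nt on average. At such counts counting error alone raises both single-nucleotide values, and its part in them and in their order across libraries was not tested. Of the span, 70.0% of nucleotides had a cDNA in replicate 1, 88.0% in replicate 2 and 75.9% in the other libraries. Replicate 2 brought to the number of cDNAs of replicate 1 in the span would cover 71.0%, so its wider coverage went with its 2.51 times as many cDNAs there. In the merged track 6195 nt (94.7%) had a cDNA and 349 nt had none.

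Peaks were bins of 25 nt with at least 3 times the mean density of the span in both replicates, and 4 of 261 bins met this. They add up to 100 nt, 1.53% of the span, and held 6.37% of the Malat1 cDNAs of replicate 1, 5.47% of replicate 2 and 4.77% of the other libraries. The highest, at nt 4774 to 4798, had 293 cDNAs in replicate 1, 604 in replicate 2 and 254 in the other libraries, which is 4.91, 4.04 and 3.79 times the mean. The peak at nt 3799 to 3823 had 250, 517 and 161 cDNAs (4.19, 3.46 and 2.41 times), so that it was below the limit of 3 in the other libraries. The peaks at nt 5274 to 5298 and nt 5424 to 5448 had 233, 524 and 220 cDNAs and 228, 514 and 210 cDNAs. Just under the limit were nt 5474 to 5498, with 3.14 and 2.65 times the mean in replicates 1 and 2, and nt 5399 to 5423, with 2.87 and 2.94 times. The sequences of the 4 peaks, with 10 nt on each side, are shown for their pyrimidine-rich stretches; words of the SRSF3 motif described further on are in capitals. These and all sequences below are from GENCODE M21, minus strand of GRCm38, 5′ to 3′ along the RNA, with T for uridine, and the coordinates beside them are mm9.
Peak nt 3799 to 3823 (chr19:5798841-5798885 shown): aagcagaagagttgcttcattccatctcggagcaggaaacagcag
Peak nt 4774 to 4798 (chr19:5797866-5797910 shown): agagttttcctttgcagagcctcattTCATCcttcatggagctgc
Peak nt 5274 to 5298 (chr19:5797366-5797410 shown): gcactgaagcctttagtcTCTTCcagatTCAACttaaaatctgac
Peak nt 5424 to 5448 (chr19:5797216-5797260 shown): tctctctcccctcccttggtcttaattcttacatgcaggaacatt
The peak at nt 4774 holds 1 word of the motif and the peak at nt 5274 holds 2, and the others hold 0.

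No single nucleotide dominated Malat1. The most used one, nt 4793 (5797881), held 83 of 15773 cDNAs in replicate 1, 126 of 39478 in replicate 2 and 81 of 17722 in the other libraries, which is 102, 55.9 and 71.1 CPM, and ranked first in all 3. The 10 nucleotides with the highest CPM in the lower replicate held 3.09% of Malat1 cDNAs in replicate 1, 2.13% in replicate 2 and 1.91% in the other libraries. They are 5 uridines and 5 cytidines at this placement and would be 7 uridines and 3 adenosines at the one 1 nt away. Capitals mark them in the stretches below, each shown with 20 nt on either side.
nt 823 (5801851): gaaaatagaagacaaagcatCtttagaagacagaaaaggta
nt 3786 and 3814 (5798888 and 5798860): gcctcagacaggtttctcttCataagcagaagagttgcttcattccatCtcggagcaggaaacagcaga
nt 3974 (5798700): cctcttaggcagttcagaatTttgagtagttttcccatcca
nt 4793 and 4798 (5797881 and 5797876): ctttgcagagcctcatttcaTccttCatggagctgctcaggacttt
nt 5473 (5797201): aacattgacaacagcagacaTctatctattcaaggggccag
nt 5607 (5797067): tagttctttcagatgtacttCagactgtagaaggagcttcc
nt 5817 (5796857): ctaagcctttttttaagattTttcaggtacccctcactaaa
nt 6568 (5796106): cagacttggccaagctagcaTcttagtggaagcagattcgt
After nt 4793, nt 3786 held 65 cDNAs in replicate 1, 122 in replicate 2 and 29 in the other libraries. Nt 4798 held 35, 84 and 44, nt 5473 held 51, 82 and 38, and nt 3814 held 56, 82 and 30. The only named nucleotide 5′ of nt 3786 was nt 823, with 63, 74 and 24 cDNAs. Its log2 ratio of replicate 1 to replicate 2 was 1.23 (95% interval 0.73 to 1.74), the largest of the 10. The remaining 4 held 27 to 40 cDNAs in replicate 1, 66 to 71 in replicate 2 and 19 to 31 in the other libraries. The next nucleotide in the same order, nt 5474, held 22, 72 and 22. All 10 had more CPM in replicate 1 than in replicate 2. The 95% interval of this log2 ratio includes 0 at nt 4798 (-0.41 to 0.79), nt 5607 (-0.53 to 0.84) and nt 5817 (-0.34 to 0.97). The 10 were chosen on these same counts, and their shared direction was not tested.

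**Figure D2:**
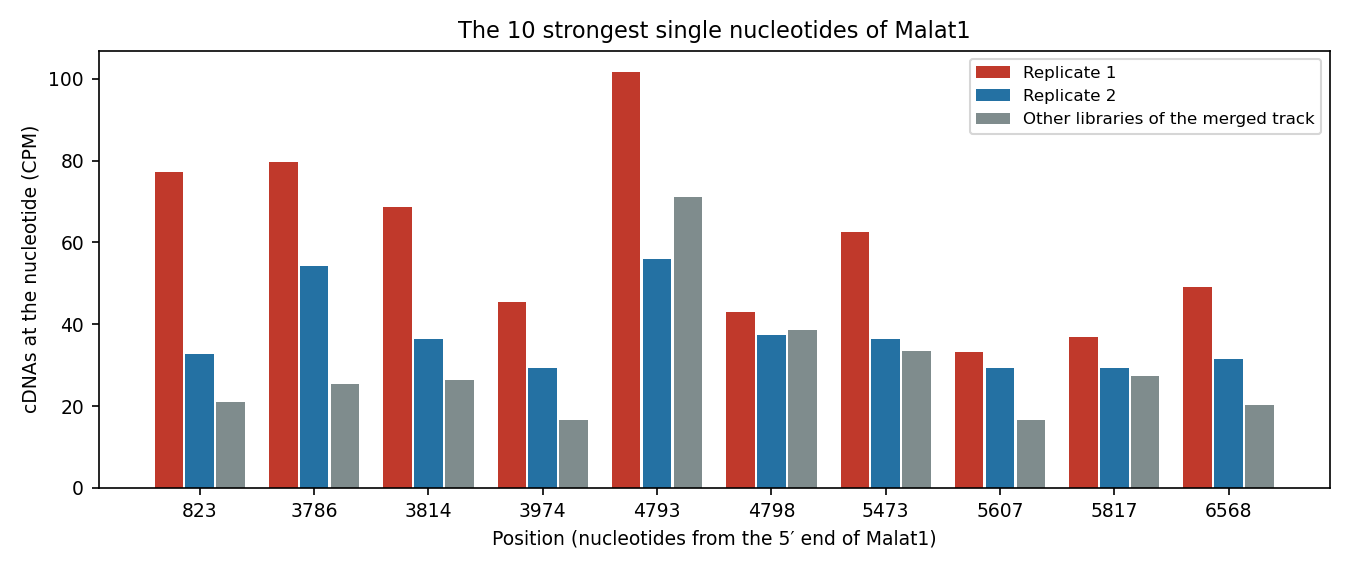
cDNAs in CPM (y axis) at the 10 strongest single nucleotides of Malat1, in order from the 5′ end (x axis), with bars for replicate 1, replicate 2 and the other libraries of the merged track. Replicate 1 is above replicate 2 at all 10, which were chosen on these same counts, and nt 4793 is the highest in each library.

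An 85 nt stretch inside the body of Malat1, nt 565 to 649 (chr19:5802025-5802109), held 0 cDNAs in every library. At 0 counts the limit is 3 cDNAs, or 3.68 CPM in replicate 1, 1.33 in replicate 2 and 2.64 in the other libraries. It was the only run of at least 10 nt without a cDNA inside the span. The 100 nt before it held 154, 439 and 261 cDNAs, and the 100 nt after it 110, 275 and 116. The stretch, in capitals below with 20 nt on each side, has the sequence of a B1 element, a short interspersed repeat with many copies in the mouse genome.
Stretch without cDNAs (chr19:5802005-5802129 shown): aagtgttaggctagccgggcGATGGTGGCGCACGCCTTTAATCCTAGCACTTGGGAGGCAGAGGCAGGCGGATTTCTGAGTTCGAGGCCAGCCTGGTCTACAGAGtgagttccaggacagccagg
Each nucleotide was judged by the 30 nt word that starts there and runs 3′. At 84 of the 85 nt this word also stands unchanged in a transcript of another gene, in up to 853 genes. Of the 6515 other nt compared, 31 (0.476%) start such a word. The 115 nucleotides that start a copied word held 0.183 cDNAs per nt in replicate 1, 0.183 in replicate 2 and 0.104 in the other libraries, against 2.41, 6.05 and 2.71 per nt on the others. How reads with several matches were handled is not given in these sources, and the part of copied sequence in the empty stretch was not tested.

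At the 3′ end the signal fell to near 0 shortly before the adenosine run. In the 100 nt that end 100 nt before this run the density was 1.42 times the mean of the span in replicate 1, 1.42 in replicate 2 and 1.52 in the other libraries. From 100 to 51 nt before it the density was 1.08, 1.00 and 1.07 times the mean, and in the last 50 nt 0.512, 0.402 and 0.373 times, with 61, 120 and 50 cDNAs. Within these the bin at nt 6626 to 6650 had 2845, 2023 and 1686 CPM per kb, but the bin at nt 6651 to 6675, which ends in the first bases of the run, had 147, 88.7 and 70.3. The run itself, 12 adenosines at nt 6674 to 6685 (chr19:5795989-5796000), held 0 cDNAs in all 3. The 298 nt from there to the annotated end held 7, 35 and 11 cDNAs (8.58, 15.5 and 9.66 CPM). The 76 nt after nt 6686, which hold the mascRNA sequence, had none. RNA was cut to between 80 and 200 nt, and how well shorter RNA was captured is not known here. The part of RNA length in the low counts near the run and behind it was not tested, so they do not show a lack of binding. The sequence shows the uridine-rich motifs that pair with the run, the run in capitals and the start of the tail.
3′ end, nt 6574 to 6765 (chr19:5795909-5796100): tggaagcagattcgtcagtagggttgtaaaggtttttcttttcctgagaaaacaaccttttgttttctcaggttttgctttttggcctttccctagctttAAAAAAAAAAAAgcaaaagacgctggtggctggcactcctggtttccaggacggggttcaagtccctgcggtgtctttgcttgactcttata
At the other end, the first 100 nt of Malat1 held 186, 422 and 254 cDNAs, 0.780, 0.706 and 0.949 times the mean density. In the 327 nt upstream of the 5′ end there were 5, 16 and 18 cDNAs, of which 5, 14 and 16 lay within 3 nt of it. The 691 nt downstream of the annotated end held 5, 19 and 13.

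Malat1-202, Malat1-203 and Malat1-204 are short spliced models of Malat1. Exon 1 of Malat1-202, nt 5209 to 5671, covers the strongest bin, nt 5374 to 5473, and its neighbour towards the 5′ end. It had 1.87 times the mean density in replicate 1, 1.71 in replicate 2 and 1.74 in the other libraries. Exon 1 of Malat1-203 had 0.664, 0.632 and 0.869 times and exon 1 of Malat1-204 had 0.736, 0.796 and 0.767 times. Inside the introns cDNAs were also present, at 0.684, 0.719 and 0.709 times the mean density for Malat1-202 in replicate 1, replicate 2 and the other libraries. For the intron of Malat1-203 the values were 0.492, 0.475 and 0.587, and for that of Malat1-204 0.612, 0.608 and 0.620. The intron of Malat1-203 holds the empty stretch. Those of Malat1-202 and Malat1-204 hold the tail behind the adenosine run as far as exon 2, which starts at nt 6890 in both models. Exon 2 thus lies in the tail too, with 0.0225, 0.0342 and 0.0361 times the mean for Malat1-202 and 0.0233, 0.0335 and 0.0373 times for Malat1-204. Exon 2 of Malat1-203 had 0.659, 0.785 and 0.610 times. The small RNA model Gm27694, which lies within Malat1 at nt 3588 to 3673, had 1.12, 1.06 and 0.821 times the mean.

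The shape of the profile was shared by the libraries. Across the 65 bins of 100 nt, Pearson's r was 0.970 between replicates 1 and 2 (Spearman's rho 0.949), 0.932 between replicate 1 and the other libraries (0.887) and 0.939 between replicate 2 and the other libraries (0.892). Across the 6544 single nucleotides r was 0.830, 0.767 and 0.805. Bins and nucleotides of 1 RNA are not replicates, and they share base composition, so these values are descriptions. Of the 50 strongest nucleotides in each library, 31 were shared by replicates 1 and 2, 29 by replicate 1 and the other libraries, 28 by replicate 2 and the other libraries, and 22 by all 3.

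Bins of 100 nt with at least 50 cDNAs over the replicates were tested for a difference between replicate 1 and replicate 2 across the whole genome, by two-sided exact binomial tests on the library totals with adjustment over all bins after Benjamini and Hochberg. Of 66 bins of Malat1, 11 passed a 5% false discovery rate, where 8.37% of all 633 bins tested passed. All 11 were higher in replicate 1, a direction in which 7.58% of all bins passed (0.79% were lower). All bins tested include those of Malat1, and the test calls bins with more cDNAs more readily. With at least 100 cDNAs per bin, 13 of 66 Malat1 bins passed and 49 of all 308 bins. The median log2 ratio was 0.15 over the Malat1 bins and 0.13 over all bins tested, and 47 of the 66 Malat1 bins were above 0. The largest difference was at nt 1874 to 1973, with 187 cDNAs in replicate 1 and 356 in replicate 2 (log2 ratio 0.54, 95% interval 0.27 to 0.80, adjusted p = 0.0016, exact binomial test). Next came nt 1274 to 1373, with 227 and 453 cDNAs (0.47), and nt 774 to 873, with 388 and 818 cDNAs (0.39), which holds nt 823. Of the 5 strongest bins, 4 passed and the one at nt 4574 to 4673 did not (log2 ratio -0.00, 95% interval -0.18 to 0.17). When the Malat1 cDNAs of each library served as its total, none of these 11 passed and 1 other bin did. That bin, nt 2574 to 2673, was lower in replicate 1, with 95 cDNAs against 345 in replicate 2 (log2 ratio -0.54 on these totals, adjusted p = 0.0276, exact binomial test).

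**Figure D3:**
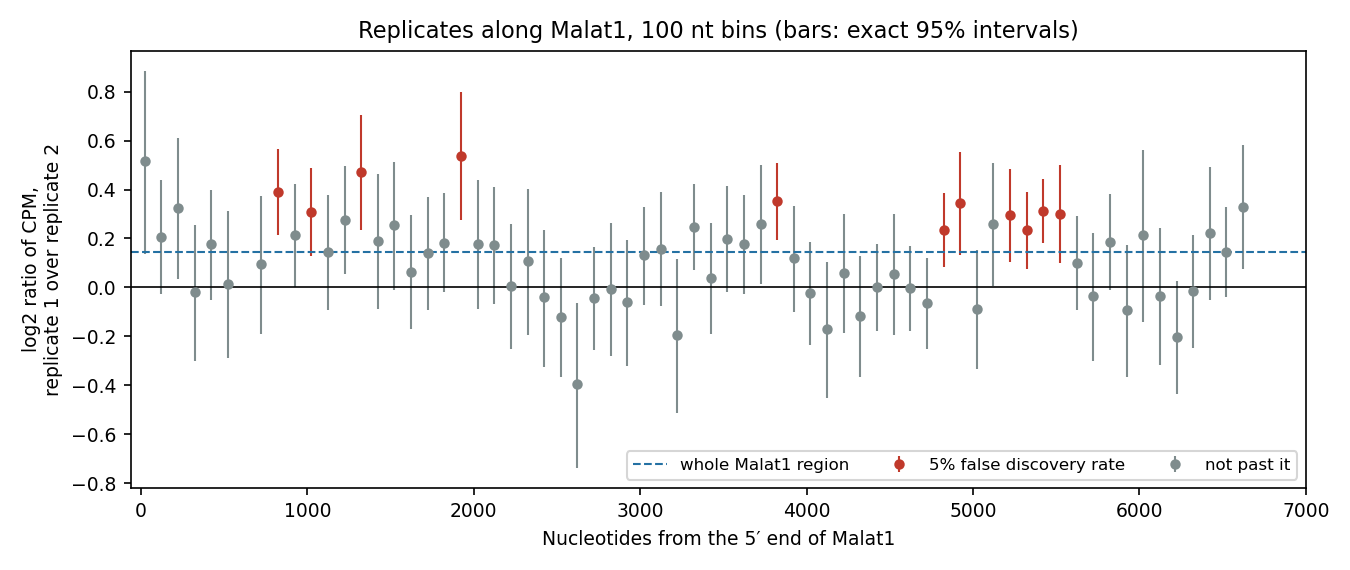
Log2 ratio of CPM of replicate 1 over replicate 2 (y axis) for each tested 100 nt bin along Malat1, in nucleotides from the 5′ end (x axis), with exact 95% intervals; bins past a 5% false discovery rate are in red. Most bins scatter around the dashed line, the 0.14 of the whole RNA, and the 11 red bins are all above 0.

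The other libraries were set against both replicates together in the same way. Of 66 Malat1 bins 34 passed (51.5%), 2 higher and 32 lower, against 58% of all 916 bins tested (16.6% higher, 41.4% lower). The median log2 ratio of the Malat1 bins was -0.22, against -0.58 over all bins tested. The bin at nt 3774 to 3873 had the lowest ratio of all Malat1 bins, with 319 CPM in the other libraries against 606 in replicate 1 and 475 in replicate 2 (log2 ratio -0.68, adjusted p = 1.08e-15, exact binomial test). The 2 bins that were higher, nt 274 to 373 and nt 474 to 573, are near the 5′ end. Of the 11 bins that differed between the replicates, 8 were also lower in the other libraries. The replicates enter both comparisons, so their calls are not independent.

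Uridine was the most frequent base at the cDNA position on Malat1. In replicate 1 45.2% of cDNAs lay on a uridine, 24.2% on an adenosine, 16.2% on a cytidine and 14.4% on a guanosine. Replicate 2 had 44.7%, 23.9%, 16.1% and 15.3%. The transcript itself is 28.9% uridine, 28.6% adenosine, 17.1% cytidine and 25.4% guanosine. The placement was chosen on the uridine share, so its peak and its fall to either side follow from that choice. At placements more than 10 nt away the share did not exceed 32.2% in replicate 1 and 32.0% in replicate 2. Uridine made up 43.3% and 43.8% at the nucleotide before the position and 40.4% and 39.7% at the one after it. A uridine of the span held 3.76 cDNAs on average in replicate 1 and 9.33 in replicate 2, a cytidine 2.28 and 5.70, an adenosine 2.01 and 4.96, and a guanosine 1.33 and 3.55.

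**Figure D4:**
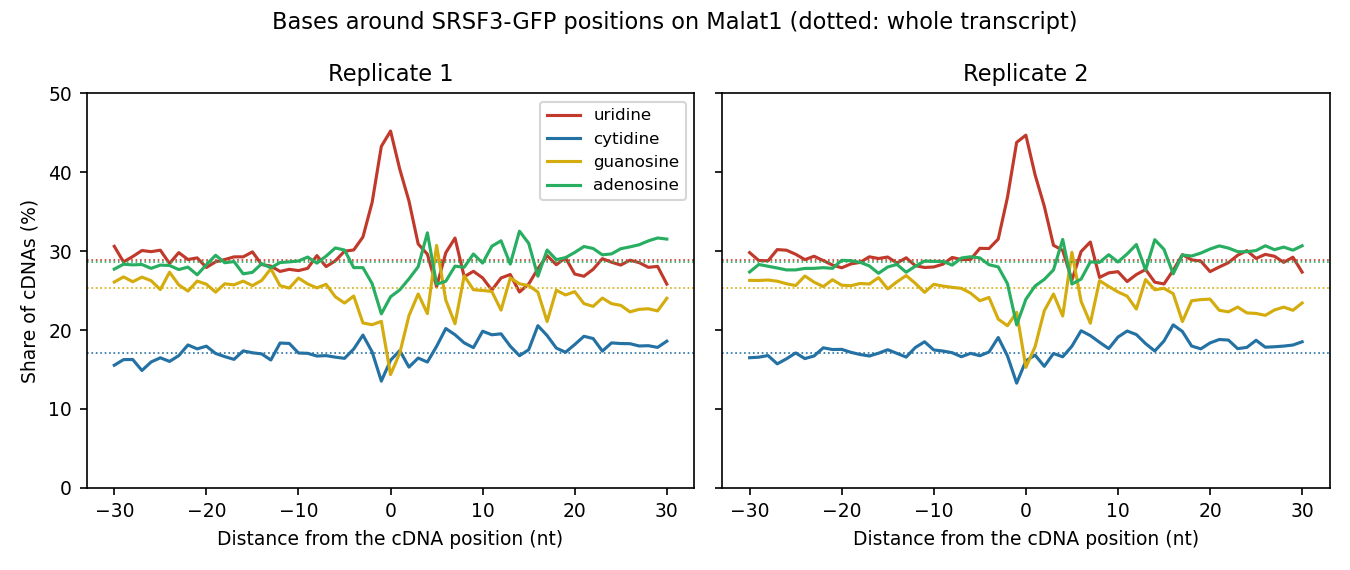
Share of cDNAs in percent (y axis) with each base at distances of 30 nt on either side of the cDNA position (x axis), for replicate 1 on the left and replicate 2 on the right; dotted lines give the share of each base in the whole transcript. Uridine peaks at the position, at 45.2% in replicate 1 and 44.7% in replicate 2, and guanosine is the least frequent base there.

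A consensus published for SRSF3 has cytidine at its second and last base and adenosine or uridine at the others. Its 8 words are ACAAC (5 sites in Malat1), ACAUC (4 sites), ACUAC (3 sites), ACUUC (5 sites), UCAAC (3 sites), UCAUC (4 sites), UCUAC (3 sites) and UCUUC (7 sites). They were searched on the RNA strand alone. Malat1 has 34 such sites, and 17.8% of cDNAs of replicate 1, 17.4% of replicate 2 and 15.4% of the other libraries had a site overlapping the 10 nt on either side of them. The same holds for 11.1% of all nucleotides of the transcript, so the ratios were 1.60, 1.56 and 1.38. The word UCAUC, with 4 sites, had the highest ratio of the 8 in both replicates (2.82 in replicate 1 and 2.80 in replicate 2), and UCUAC, with 3 sites, the lowest (0.933 and 0.880). One UCUAC site lies in the empty repeat stretch. The looser motif CNNC, which each of these sites contains, has 227 sites and was near 51.5%, 51.7% and 48.7% of cDNAs, against 48.3% of nucleotides. UUUUU, with 46 sites, was near 9.96%, 9.82% and 10.2% of cDNAs, against 7.60% of nucleotides. The purine-rich word GGAGA and the word GGACU, with 9 sites each, were near fewer cDNAs than nucleotides: 2.34% and 2.49% for GGAGA in replicates 1 and 2, and 2.85% and 3.02% for GGACU, against 3.22% for each. A match in these letters is a description and does not make a binding site.

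Sites of the 8 words differed widely in signal. The density over a site and 10 nt on either side ranged from 0.0503 to 4.98 times the mean of the span in replicate 1 and from 0.0134 to 4.19 in replicate 2. It exceeded the mean in both replicates at 20 of 34 sites (58.8%), against 33.8% of all 6540 windows of this length in the span. It was above 2 times the mean in both at 7 sites (20.6%), against 6.74% of windows. These 7 are UCUUC at nt 3782 to 3786, UCAUC at nt 4790 to 4794, UCUUC at nt 5282 to 5286, UCAAC at nt 5292 to 5296, ACAAC at nt 5460 to 5464, ACAUC at nt 5470 to 5474 and ACUUC at nt 5603 to 5607. All 7 lie between nt 3001 and 6000, where the densities per 1000 nt were highest in both replicates, and the windows of neighbouring sites overlap.

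Averaged over the 34 sites, base 4 of the motif had 3.40 times the mean density in replicate 1, 2.61 in replicate 2 and 2.80 in the other libraries, and base 5, a cytidine, 3.29, 3.24 and 2.22. The other nucleotides up to 60 nt away had medians of 1.21, 1.21 and 1.13 and reached at most 2.08, 2.07 and 1.81. A few sites carry much of this: nt 4793 and nt 5473 are base 4 of a site, and nt 3786 and nt 5607 are base 5. Without the 10 named nucleotides base 4 had 1.86, 1.68 and 1.59 times and base 5 had 2.29, 2.46 and 1.80 times the mean. The highest other nucleotide then had 1.998, 2.07 and 1.68 times, so base 5 stayed above it in all 3 and base 4 was below it. With the placement 1 nt away these would be bases 4 and 3. Of 33 sites with at least 10 cDNAs, 22 in replicate 1, 20 in replicate 2 and 20 in the other libraries had a higher density on bases 4 and 5 than on the rest of the 21 nt around them (66.7%, 60.6% and 60.6%). Of all pairs of neighbouring nucleotides in the span with as many cDNAs around them, 39.0%, 39.3% and 40.01% did. Without the named nucleotides the counts of sites were 22, 19 and 20.

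**Figure D5:**
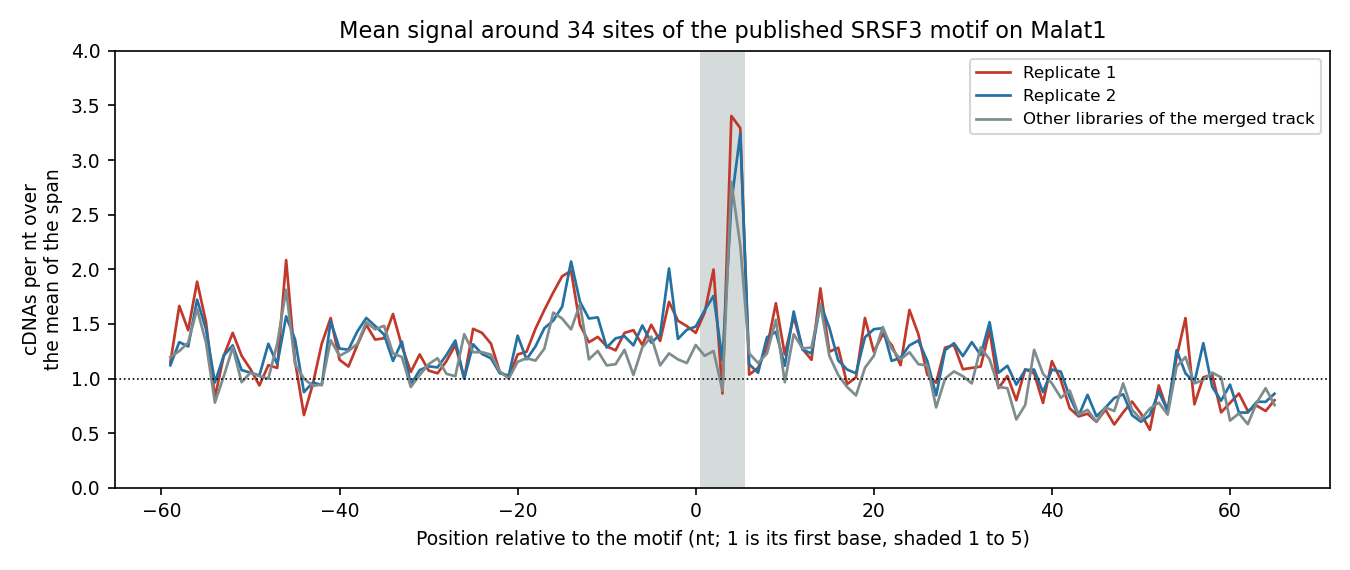
Mean cDNAs per nt over the mean of the span (y axis) at each distance from the first base of 34 motif sites of Malat1 (x axis, nt), for replicate 1, replicate 2 and the other libraries of the merged track; the motif is shaded and the dotted line marks the mean. All lines peak at bases 4 and 5 of the motif, with 3.40 in replicate 1, 2.61 in replicate 2 and 2.80 in the other libraries at base 4.

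Among the 248 words of 5 nt with at least 10 sites in the span, the cDNAs on the word itself were densest on CAUCU, with 4.58 times its share of nucleotides in replicate 1, 3.53 in replicate 2 and 2.91 in the other libraries. AUUUU came next (3.77, 3.44 and 3.16), then UUCAU (4.15, 3.34 and 3.10). The lowest of the 248 was GAGGC (0.226, 0.318 and 0.239). Some GAGGC sites lie in the empty repeat stretch, and their part in this value was not tested. CAUCU and UUCAU have 10 sites each and AUUUU has 14, and these sites include most of the named strong nucleotides. At this placement nt 823, 3814, 5473 and 6568 lie in CAUCU, nt 3974 and 5817 in AUUUU, and nt 3786, 4793 and 4798 in UUCAU. The part of these nucleotides in the ranking was not tested. The words are ranked by the lower of the replicates and no test was made.

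Set beside the rest of the libraries, Malat1 held 204 of the 544 positions with more than 10 cDNAs in replicate 1 (37.5%), 1066 of 2107 in replicate 2 (50.6%) and 219 of 739 in the other libraries (29.6%). Of the positions with more than 20 cDNAs it held 34 of 162 (21.0%), 300 of 694 (43.2%) and 24 of 146 (16.4%). Of the 100 bins of 100 nt with the most cDNAs over both replicates, 62 were in Malat1, which follows from the way it was chosen. In bins with 300 to 1500 cDNAs over both replicates, the strongest nucleotide held a median of 5.71% of a bin's cDNAs over 60 Malat1 bins (range 3.56 to 11.4%) and 11.6% over the 65 other bins (3.79 to 94.5%). Those Malat1 bins had a cDNA at a median of 94.5 nt and the other bins at 76.0 nt. The median bin held 746 cDNAs in Malat1 and 483 elsewhere, and the part of this difference in depth was not tested.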

How the data were processed

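SRSF3-GFP iCLIP of neonatal mouse cardiomyocytes was taken from 3 tracks: 2 replicates and 1 merged track. The authors deposited a signed score per single nucleotide: its absolute value counts cDNAs, its sign gives the strand, and no scaling to depth was applied, as the values show. Per the file headers these are cDNA hits on mm9 with Ensembl 59 annotation. Bowtie 0.10.1 did the mapping, per the submitters' processing notes. The treatment of duplicates and of reads with several matches was not given in the sources used here. The merged track sums 5 libraries per its header. Its excess over both replicates (3 further libraries) is called the other libraries.

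Malat1 was the minus strand of chromosome 19 from 5795000 to 5803000. Minus-strand positions carry negative scores, and coordinates are 1-based. cDNAs were divided by the library total (CPM). Means and SDs are over 2 replicates. Malat1 and the motifs were chosen with earlier results of these data known. Named were the 10 nucleotides and the 5 highest and 3 lowest 100 nt bins by the lower replicate, bins that differed between the replicates, and runs of 25 nt bins at 3 times the mean or more in both replicates. Bins of at least 50 cDNAs over the whole genome entered two-sided exact binomial tests with Benjamini-Hochberg adjustment at a 5% false discovery rate. Poisson and binomial intervals are exact at 95%, and the limit of a 0 is 3 cDNAs; all cover counting error only, and PCR copies left in the counts would make them too narrow. No coordinate was converted between builds: bases come from the transcript sequence, placed by the uridine share. The bin test and the placement search alone were run on simulated data. The simulated placement was unshifted in every run and had its uridine excess at a single nucleotide. These runs therefore do not bear on the choice between neighbouring placements. Python 3.11.15, numpy 2.4.6, pandas 2.3.3, scipy 1.17.1 and matplotlib 3.10.9 were used. The 6 heart samples are not analysed here.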

Additional observations from a re-analysis of the deposited data

How the results depend on the processing

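Across 49 recomputed values 29 kept their size within the spread between replicates or their call, 20 moved and 0 reversed. For the profile correlation the spread is that over the pairs of libraries, with the other libraries included. Counts of bins have no such spread, so their labels of kept or moved hold no estimate of error. With 2 replicates, a value with a replicate left out lies within their SD by construction, so those values could not move. The replicate ratio counts as kept in call alone, since it went from 0.14 to 1.10 on the log2 scale with each position counted once. Counting each position once gave a level of 4428 per 1000000 positions (main 18430 CPM). This is the mean of 6042 in replicate 1 (4650 of 769652 positions) and 2814 in replicate 2 (5892 of 2093525 positions). It also gave a median position of 51.6% of the span (57.2%), a uridine share of 32.0% (45.0%) and a motif ratio of 1.11 (1.58). Over the whole region the median position was 51.6% of its length. The bins that differed between replicates numbered 7 with 250 nt bins, 6 with at least 20 cDNAs and 1 with Malat1 totals (main 11); for the other libraries against the replicates they numbered 16 with 250 nt bins and 20 with Malat1 totals (main 34). Fewer and longer bins, or more bins tested, change these counts by construction. The Gini coefficient was 0.288 with 50 nt bins and 0.173 with 250 nt bins (0.231), and the profile correlation 0.830 at single nucleotides (0.970). With at least 2 cDNAs, 60.4% of the span was covered (79.0%). Uridine made up 48.9% at positions with 3 or more cDNAs and 43.6% with the transcript placed 1 nt further 3′. The motif ratio was 1.41 within 25 nt, 1.74 within 5 nt, 1.49 without the 10 named nucleotides and 1.53 against the span. The last 2 of these, the placement and a replicate ratio with each position counted once (1.10 on the log2 scale) were chosen after seeing the data. Leaving out a replicate gave levels of 17517 to 19344 CPM, Gini coefficients of 0.221 to 0.242, median positions of 57.1 to 57.3%, coverage of 70.0 to 88.0%, uridine shares of 44.7 to 45.2% and motif ratios of 1.56 to 1.60. No paired analysis was possible because the comparisons are between replicates of 1 group. Where not said, the cause of a move was not tested. Depth limits what single nucleotides can show, with 2.38 cDNAs per nt in replicate 1 and 5.98 in replicate 2.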
